A study of Mus musculus with 8 samples.

Results

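The loci of 10 genes encoding germ layer and trophoblast regulators were examined, out of 21951 protein-coding genes, in mouse embryonic fibroblasts (MEFs) at day 5 of reprogramming. The genes were Gata4, Gata6, Sox17, Foxa2, Cdx2, Eomes, T, Tfap2c, Pax6 and Hand1. They were chosen by name, with earlier results of these data known, and the rule used no measured value. Each locus was the gene body plus 20 kb on each side in mm10, and a peak counted where it overlapped this window. Binding and histone marks were measured by CUT&Tag, in which an antibody leads a transposase to its target so that the DNA beside it can be sequenced. All cells carried the OG2 reporter, in which Oct4 sequences drive a fluorescent protein, and were made from mid-gestation embryos of OG2 males and 129 females per the methods. Retroviruses delivered Oct4 together with Nanog (NanogWT) or together with a fusion that the labels call NanogN70 (NanogBiD, the part of SS18 that binds BRG1 joined to Nanog; this identity comes from the text of the study). Antibodies were directed at FLAG, the tag on NANOG, at BRG1 (Smarca4), the motor subunit of the BAF complex, which moves nucleosomes, at H3K27ac and at H3K4me1. Each of the 4 targets had 1 merged library per arm, 8 libraries in all, so no difference between arms could be set against the spread between cultures and no test was made.

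These 10 genes encode transcription factors that direct cells of the early embryo into endoderm, mesoderm, neural ectoderm or trophoblast, the precursor of the placenta. Most are known as silent in fibroblasts, although RNA was not examined here and Gata6 carried H3K27ac over its start in both arms. In pluripotent cells several of the genes are held ready for later use by chromatin marks at their start sites. H3K4me1 marks enhancers and the flanks of promoters whether or not they are in use, whereas H3K27ac marks those in use. NANOG and OCT4 are known in embryonic stem cells for restraining such lineage genes, and NANOG is the counterpart of GATA6 when the inner cell mass separates into epiblast and primitive endoderm.

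The lists held between 30859 and 74782 peaks. The height of a peak is the tag pileup at its summit, which the authors did not scale to depth, and the depth of the libraries was unknown. Where overlapping peaks were joined into a region, its height in an arm is that of the tallest summit. The tallest summits of the arms can lie apart. Median heights over whole lists were between 13 and 16 tags and the lowest between 6 and 8 tags, so a missing peak means only that none was called there. The labelled cell type was checked by H3K27ac within 2 kb of the start sites of marker genes. In each arm 9 of 10 fibroblast markers carried a peak, with Prrx1 the exception. Of 5 pluripotency markers (Nanog, Pou5f1, Sox2, Esrrb and Zfp42) none carried one in either arm. Peaks were also found in NanogWT and NanogBiD at 0 and 1 of 4 epithelial, 1 and 2 of 3 blood, and 0 and 2 of 3 endothelial markers, and the part of such cells in the values below was not tested. In these bulk libraries, fewer cells with a mark and less of the mark per cell cannot be told apart.

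Across the 10 loci the active marks and the 2 proteins were sparse, and H3K4me1 was not. All 10 loci had H3K4me1 peaks in both arms, against 78.1% of protein-coding genes (80.8% in NanogWT and 79.7% in NanogBiD alone). FLAG peaks lay at 5 of 10 loci in NanogWT and in NanogBiD, against 77.7% and 79.8% of genes. BRG1 peaks lay at 5 and 4 loci, against 72.5% and 77.4%, and H3K27ac peaks at 3 and 5 loci, against 73.7% and 76.6%. Expressed per 100 kb, the members held 1.89 FLAG peaks in NanogWT and 1.38 in NanogBiD, where all gene windows held 3.21 and 3.90. For H3K4me1 the order was the other way, with 6.37 and 5.51 peaks per 100 kb at members and 4.21 and 3.45 over all genes. Member windows were between 44.1 and 113 kb long, with a median of 48.0 kb against 57.4 kb for all genes.

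**Figure D1:**
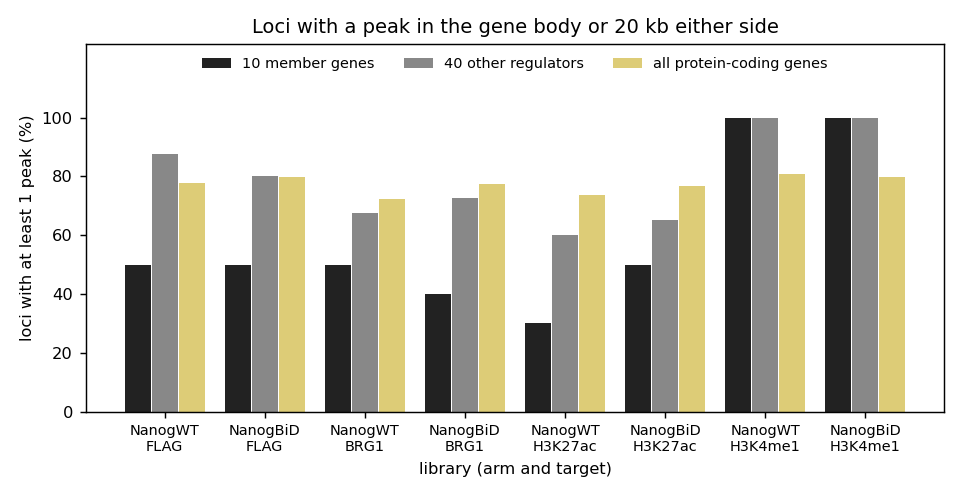
Share of loci (vertical axis, percent) with at least 1 peak in the gene body or 20 kb on either side, for each arm and target (horizontal axis). Black bars are the 10 member genes, grey bars 40 other lineage regulators and yellow bars all 21951 protein-coding genes. The black bars stand at 50, 40 or 30% for FLAG, BRG1 and H3K27ac and at 100% for H3K4me1.

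The loci separated into a group of 5 where each of the 4 targets had a peak in one arm or the other (Gata4, Gata6, Cdx2, Eomes and Pax6) and a group of 5 with H3K4me1 alone in both arms (Sox17, Foxa2, T, Tfap2c and Hand1). H3K4me1 in both arms, with none of the other targets in either, was found at 0.902% of all protein-coding genes (198 of 21951). This class was defined after the values of the members had been seen, so its share is a description. A window without FLAG or BRG1 peaks in either arm was more frequent, at 17.5% of genes. Since neighbouring genes bring their own peaks, loci with no other protein-coding gene in the window were counted as well. Of the 5 such members (Gata6, Sox17, Foxa2, Eomes and Tfap2c) 3 had H3K4me1 alone, against 1.46% of 4994 such genes. The size of this group depended on the settings. When peaks scoring under 100 were left out, when each list was reduced to its 20000 best peaks, or when the flanks were 50 kb, 1 member had H3K4me1 alone, against 1.71%, 2.46% and 0.296% of all genes in turn.

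**Figure D2:**
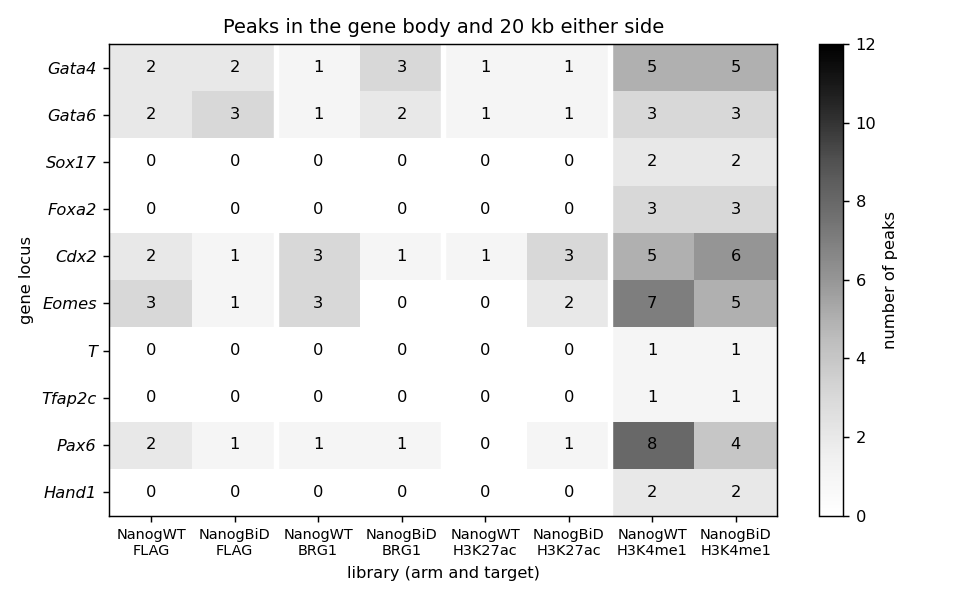
Number of peaks in the window of each gene (rows) in each library (columns, arm and target), with darker cells for more peaks. Sox17, Foxa2, T, Tfap2c and Hand1 have 0 in all columns of FLAG, BRG1 and H3K27ac and between 1 and 3 in those of H3K4me1.

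Both proteins differed together between the arms at 3 member regions. FLAG and BRG1 lay in NanogBiD alone at 1 region, in an intron of Gata4, and in NanogWT alone at 2 regions, at and downstream of Eomes. The Gata4 region is shown as sequence because it is the member region where both proteins were listed with the fusion alone. The line gives 50 bp on either side of the FLAG summit on the plus strand of mm10, and capitals mark a match to the SOX letters ACAAAG, here read on the minus strand.
Gata4 intron, chr14:63205720-63205820, NanogBiD summit: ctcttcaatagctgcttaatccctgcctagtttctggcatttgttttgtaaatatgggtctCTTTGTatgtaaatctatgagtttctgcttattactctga
GC content was 35.6% in this sequence. Both strands of member summits were searched for short letters known for 6 families of factors. The letters for AP-1, the factor family of active fibroblast enhancers, were TGANTCA. Those for OCT factors were ATGCAAA, a part of the octamer that OCT4 recognises. Homeodomains of the NANOG type were searched for as TAATGG. TEAD factors, active in the trophectoderm and counted by the study among somatic factors, were searched for as GGAATG. For GATA factors the letters AGATAA served. The Gata4 sequence held the SOX letters and none of these.

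Over all 11 member FLAG summits of NanogWT, the NANOG-type letters were found at 2, the TEAD letters at 1 and the GATA letters at 1, and the others at 0. Over all 8 of NanogBiD, the SOX, NANOG-type and GATA letters were found at 1 summit each, and the rest at 0. Among all FLAG summits each set lay within this distance of between 4.37% and 8.39% of summits in NanogWT and between 5.10% and 10.4% in NanogBiD.

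Gata4 and Gata6 encode zinc finger factors of endoderm and heart, and Gata6 is a master regulator of primitive endoderm. At Gata4 (chromosome 14, 63198922 to 63271692, minus strand, ENSMUSG00000021944.15) 2 FLAG peaks were listed in each arm, with the tallest at 9 tags in NanogWT and 17 in NanogBiD. BRG1 peaks numbered 1 in NanogWT and 3 in NanogBiD, with the tallest at 9 and 12 tags. The 2 FLAG peaks were not at the same places in the arms.

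The Gata4 intronic region whose sequence is given above (1202 bp) had FLAG at 17 tags and a score of 161, and BRG1 at 8 tags and a score of 63.3, in NanogBiD only. Neither H3K27ac nor H3K4me1 had a peak there in either arm. Its edge was 7.36 kb from the nearest Gata4 start site, within a later intron of the longest gene model. Both proteins in NanogBiD alone was a frequent class over the genome, with 10.2% of the FLAG or BRG1 regions in gene windows and at least 1 region at 26.2% of genes. This region is the single member region of that class. Without peaks scoring under 100, with the 20000 best peaks of each list or at 15 tags and more, 0 member regions were of this class.

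A second Gata4 intronic region (chr14:63255224-63256506) had FLAG in NanogWT at 9 tags, BRG1 in NanogBiD at 8 tags and H3K4me1 in both arms at 12 and 16 tags. The H3K27ac peaks of the Gata4 window, at 9 tags in NanogWT and 19 in NanogBiD, lay over the start of the neighbouring gene Neil2 (chr14:63192944-63194474), with BRG1 at 9 and 12 tags and FLAG in NanogBiD at 11. The H3K27ac height ratio there was 2.11, with a 95% interval of 0.910 to 5.30 that includes 1. This peak belongs to the window of Gata4 by the rule and to the promoter of Neil2 by its position. Near a start of Gata4 itself there was only H3K4me1, at 17 and 18 tags in the region chr14:63244319-63246232.

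Gata6 (chromosome 18, 11052064 to 11085635, plus strand, ENSMUSG00000005836.10) differed from the other members in carrying all 4 targets in both arms over its own start. In that region FLAG had 16 tags in NanogWT and 10 in NanogBiD (ratio 0.625, interval 0.254 to 1.46). BRG1 had 12 tags in each arm (ratio 1.0, interval 0.411 to 2.43). H3K27ac had 11 and 16 tags (ratio 1.45, interval 0.634 to 3.47), and H3K4me1 had 19 and 20. Every one of these intervals included 1. The tallest H3K4me1 summits lay 0.21 kb (NanogWT) and 3.03 kb (NanogBiD) from the 5′ end. A region centred 43.98 kb downstream of the 5′ end had FLAG in both arms, at 12 and 13 tags, and BRG1 at 12 tags in NanogBiD only, with H3K4me1 at 13 and 12 tags. Of the 10 members Gata6 was the only locus with more FLAG peaks in NanogBiD (2 against 3), where 40.9% of all genes had more.

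**Figure D3:**
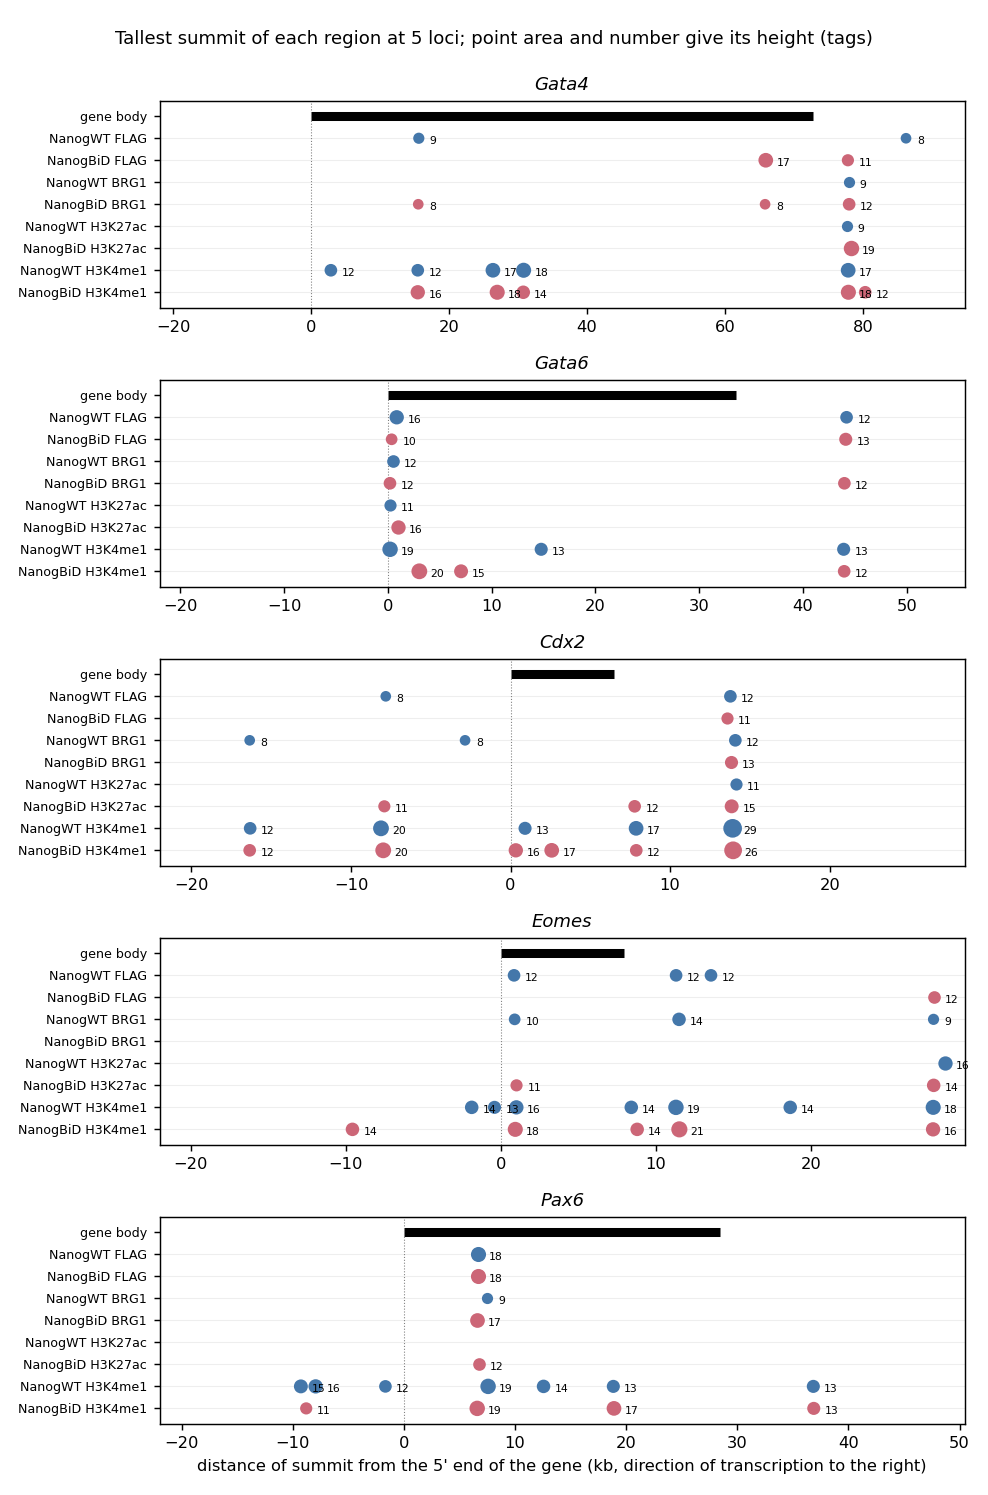
Tallest summit of each region in the windows of Gata4, Gata6, Cdx2, Eomes and Pax6, by distance from the 5′ end of the gene in kb (horizontal axis, transcription to the right), with 1 row for each arm and target and blue for NanogWT and red for NanogBiD. Point area and the number beside it give the height in tags, and the black bar is the gene body. Gata6 has points of all 8 libraries at its start, Eomes has FLAG and BRG1 in NanogWT at its start and near 11 kb, and Gata4 has FLAG and BRG1 in NanogBiD near 66 kb. A region that crosses the window edge is drawn whole, such as the one at the right of Eomes.

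Eomes encodes a T-box factor needed for trophoblast stem cells and for the mesoderm and endoderm of gastrulation. The gene (chromosome 9, 118478212 to 118486132, plus strand, ENSMUSG00000032446.14) had 3 FLAG peaks in NanogWT and 1 in NanogBiD, with the tallest at 12 tags in each arm. BRG1 peaks numbered 3 in NanogWT and 0 in NanogBiD, and peaks in NanogWT with none in NanogBiD were found at 1.55% of genes. H3K27ac had the opposite pattern, 0 peaks in NanogWT against 2 in NanogBiD, as at 4.11% of genes. Within the 20 kb flanks Eomes was thus the member whose FLAG and BRG1 peaks were most confined to NanogWT. The nearest BRG1 peak of NanogBiD lay 24.5 kb from an Eomes start. Within 50 kb of the gene NanogWT and NanogBiD had 5 and 3 FLAG peaks and 4 and 3 BRG1 peaks.

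Over the Eomes start (chr9:118478293-118479844) NanogWT had FLAG at 12 tags and BRG1 at 10, and NanogBiD had neither. The same region had H3K27ac at 11 tags in NanogBiD only, and H3K4me1 in both arms at 16 and 18 tags. The FLAG score there was 54.0, close to the lowest score of 50 in the list, and the BRG1 score was 92.3. Downstream of the gene, chr9:118488818-118490228 had FLAG at 12 tags and BRG1 at 14 in NanogWT only, again with H3K4me1 in both arms at 19 and 21 tags. Another FLAG peak of NanogWT, at chr9:118491033-118492085, had 12 tags, a score of 113 and no other target. Regions with both proteins in NanogWT alone made up 1.71% of FLAG or BRG1 regions in gene windows. At least 1 lay at 6.49% of genes, and 0.592% had 2 or more. When peaks scoring under 100 were left out, or when each list was reduced to its 20000 best peaks, neither Eomes region kept both proteins.

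At the edge of the Eomes window lay the start of Golga4 (chr9:118505700-118507364), with FLAG at 12 tags in NanogBiD, BRG1 at 9 in NanogWT, H3K27ac at 16 and 14 and H3K4me1 at 18 and 16. The H3K27ac peak of NanogWT in that region lay just outside the window, which is why it counts in the region and not among the peaks of the locus. The absence of H3K27ac from the Eomes window in NanogWT therefore depends on the 20 kb rule. The NanogBiD peak over the Eomes start itself does not.

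Cdx2 encodes a homeobox factor of the trophectoderm and later of the intestine. The locus (chromosome 5, 147300805 to 147307270, minus strand, ENSMUSG00000029646.3) had 2 FLAG peaks in NanogWT and 1 in NanogBiD, with the tallest at 12 and 11 tags. BRG1 peaks numbered 3 and 1, with the tallest at 12 and 13 tags, and H3K27ac peaks 1 and 3, with the tallest at 11 and 15. The FLAG, BRG1 and H3K27ac peaks present in both arms were in a single region 14.13 kb downstream of the Cdx2 start (chr5:147291685-147294587), which carried all 4 targets in each arm. FLAG there had 12 and 11 tags, BRG1 12 and 13, H3K27ac 11 and 15, and H3K4me1 29 and 26. The H3K4me1 peak of NanogWT at that place was the tallest peak of any target at the member loci.

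The Cdx2 promoter had only H3K4me1, at 13 and 16 tags over the start and at 17 tags in NanogBiD only in a region at its edge. Upstream, BRG1 of NanogWT had a peak of 8 tags centred at −2.91 kb from the start, with no other target, and one of 8 tags near the start of the neighbour Urad. A region at −8.08 kb from the start, in exons of Urad, had FLAG at 8 tags in NanogWT, H3K27ac at 11 tags in NanogBiD and H3K4me1 at 20 tags in each arm. A further H3K27ac peak of NanogBiD, at 12 tags, lay 7.69 kb downstream of the Cdx2 start over H3K4me1 at 17 and 12 tags. The FLAG and BRG1 peaks seen only in NanogWT at Cdx2 were thus low ones, all of 8 tags.

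Pax6 encodes a paired box factor of the eye and the neural tube. It had 2 FLAG peaks in NanogWT and 1 in NanogBiD, with the tallest at 18 tags in each arm (chromosome 2, 105668900 to 105697364, plus strand, ENSMUSG00000027168.21). All of them fell in 1 region over an internal start (chr2:105673534-105677105). BRG1 had 9 tags there in NanogWT against 17 in NanogBiD (ratio 1.89, interval 0.796 to 4.81). The tallest BRG1 summits lay 7.49 kb (NanogWT) and 6.61 kb (NanogBiD) from the 5′ end, so this ratio does not compare a single place. H3K27ac had a peak of 12 tags in NanogBiD only. H3K4me1 had 19 tags in each arm, with summits at 7.57 and 6.59 kb. Of the 4 targets FLAG and H3K4me1 thus had equal tallest heights in the region, and BRG1 and H3K27ac were higher or present in NanogBiD. The interval of the BRG1 ratio included 1. Elsewhere in the window only H3K4me1 was found, with 8 peaks in NanogWT and 4 in NanogBiD over the locus.

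The loci with H3K4me1 alone also differed in where the mark lay. Sox17, an HMG-box factor of definitive endoderm (chromosome 1, 4490931 to 4497354, minus strand, ENSMUSG00000025902.13), had 2 regions over its start sites with the same heights in both arms, 20 tags in one and 15 in the other. Foxa2, a forkhead factor that opens chromatin in endoderm and the notochord (chromosome 2, 148042877 to 148046969, minus strand, ENSMUSG00000037025.11), had 3 H3K4me1 peaks in each arm, with the tallest at 20 tags in NanogWT and 16 in NanogBiD. The tallest of NanogWT, centred at −1.79 kb from the start, had no counterpart in NanogBiD. The region over the start had 15 and 16 tags, with summits 0.51 kb (NanogWT) and 2.24 kb (NanogBiD) from the 5′ end. Tfap2c, an AP-2 factor of the trophectoderm and of germ cells (chromosome 2, 172549593 to 172558622, plus strand, ENSMUSG00000028640.11), had 1 wide region of 3489 bp over its start, at 25 tags in NanogWT and 17 in NanogBiD (ratio 0.680, interval 0.345 to 1.31).

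T (brachyury, the T-box factor of the primitive streak) and Hand1 (a basic helix-loop-helix factor of trophoblast giant cells and the heart) had no H3K4me1 within 2 kb of a start. The single H3K4me1 peak of the T window (chromosome 17, 8434423 to 8442496, plus strand, ENSMUSG00000062327.10) had 12 tags in each arm and lay at −18.70 kb from the 5′ end, in an intron of the neighbour T2. Hand1 (chromosome 11, 57828705 to 57832818, minus strand, ENSMUSG00000037335.13) had H3K4me1 at 17 and 15 tags in a region 4.85 kb from its 5′ end, and 1 further peak of 12 tags in each arm at different places. The peaks of T and Hand1 thus lay outside the promoters, and for T in a neighbouring gene.

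Beyond the 20 kb flanks the nearest peaks of the other targets were still far from Foxa2 and nearer to T and Hand1. The nearest FLAG peak to a Foxa2 start was 79.7 kb away in NanogWT and 75.0 kb in NanogBiD, and no FLAG, BRG1 or H3K27ac peak lay within 50 kb of the gene. For Sox17 the nearest FLAG peak was at 36.3 and 35.8 kb, and the nearest BRG1 peak at 74.1 kb in NanogWT and 36.1 kb in NanogBiD. For Tfap2c the nearest FLAG peak was about 50 kb away in both arms. FLAG peaks lay 25.0 and 25.2 kb from T and 29.9 and 26.5 kb from Hand1, just beyond the flank. With 50 kb on each side, Foxa2 was the member that still had H3K4me1 alone.

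At promoters, defined as 2 kb either side of any start site of the gene, H3K4me1 was present in both arms at 8 of 10 members, against 57.8% of all genes. H3K4me1 in both arms with H3K27ac in neither was found at 5 (Gata4, Sox17, Foxa2, Cdx2 and Tfap2c), against 6.65% of genes. This class was not among the planned results, so its share is a description. FLAG lay at the promoters of Gata6, Eomes and Pax6 in NanogWT and of Gata6 and Pax6 in NanogBiD, where 55.2% and 56.8% of all promoters had it. BRG1 was found at the same member promoters as FLAG in each arm, and 53.9% and 55.5% of all promoters had it. H3K27ac lay at the Gata6 promoter in NanogWT and at those of Gata6, Eomes and Pax6 in NanogBiD, against 57.0% and 59.9% of promoters.

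Summed over the 10 loci there were 11 FLAG peaks in NanogWT against 8 in NanogBiD, or 0.727 (NanogBiD over NanogWT), with an exact binomial 95% interval of 0.254 to 1.99. Such intervals cover counting error only. Over all genes the ratio was 1.21. BRG1 peaks numbered 9 and 7 (0.778, interval 0.246 to 2.35), against 1.42 over all genes. Both member ratios lay below those of all genes, and both intervals contained them. With 50 kb on each side the FLAG ratio was 1.21 and the BRG1 ratio 1.29, and without peaks scoring under 100 the latter was 2.0, so neither had a stable direction. FLAG peaks were more numerous in NanogBiD at 1 locus and less so at 3, where 40.9% and 14.4% of genes were. For BRG1 it was 2 loci each way, where it was 42.0% and 10% of genes.

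For H3K27ac, NanogWT had 3 peaks and NanogBiD had 8, which is 2.67 times as many (interval 0.640 to 15.6), against 1.13 over all genes. With 50 kb flanks there were 13 and 19 peaks, a ratio of 1.46 (0.685 to 3.22). More H3K27ac peaks were listed in NanogBiD at 3 loci (Cdx2, Eomes and Pax6) and fewer at 0, where 29.1% of all genes had more and 13.5% fewer. Of the 8 H3K27ac regions, 4 were in both arms, 4 had a peak in NanogBiD alone and 0 in NanogWT alone, where all gene windows had 59.9%, 26.0% and 14.1%. All 8 had H3K4me1 in the same arm, and over all gene windows 80.1% of H3K27ac peaks in NanogWT and 73.0% in NanogBiD overlapped it. When windows of 100 bp around summits replaced the peaks, these classes held 0, 8 and 3 regions. The interval of the ratio included 1.

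H3K4me1 peaks numbered 37 and 32 (0.865, interval 0.522 to 1.43), close to the 0.819 of all genes. The number was equal in both arms at 7 of the 10 loci, higher in NanogBiD at 1 (Cdx2) and lower at 2 (Eomes and Pax6), where 16.2% of all genes had more and 42.5% fewer. Of 43 H3K4me1 regions, 26 were shared by the arms, 11 were NanogWT only and 6 NanogBiD only. Over all gene windows these classes made up 50.4%, 33.3% and 16.3%. The shared regions were no longer the majority in 3 settings. The classes held 7, 8 and 3 regions without peaks scoring under 100, 5 each with the 20000 best peaks, and 16, 21 and 16 with windows of 100 bp around summits.

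Whether a target was listed at a whole locus in 1 arm alone was counted as well. A FLAG peak in NanogWT and none in NanogBiD was found at 0 members (1.77% of genes), and the reverse at 0 (3.86%). For BRG1 it was 1 member, Eomes, in the first direction (1.55% of genes) and 0 in the other (6.53%). Within 50 kb of Eomes both arms had BRG1 peaks, 4 in NanogWT and 3 in NanogBiD. For H3K27ac it was 0 (1.22%) and 2, Eomes and Pax6 (4.11%). For Eomes this rests on the window, since the NanogWT peak at Golga4 lay just past its edge, and within 50 kb of the gene NanogWT had 2 H3K27ac peaks and NanogBiD 4. For H3K4me1 it was 0 in each direction, where 2.69% and 1.59% of genes had such a pattern.

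**Figure D4:**
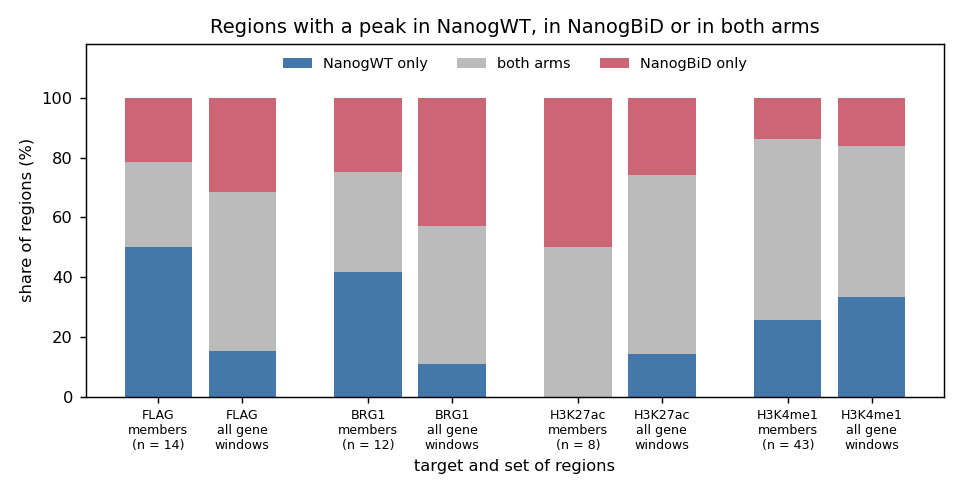
Share of regions (vertical axis, percent) with a peak in NanogWT only (blue), in both arms (grey) or in NanogBiD only (red), for each target, at the member loci and in the windows of all protein-coding genes. Members had 7 of 14 FLAG and 5 of 12 BRG1 regions in NanogWT only, and 4 of 8 H3K27ac regions in NanogBiD only.

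FLAG and BRG1 regions of NanogWT only made up more of the member regions than of those in all gene windows at this setting. FLAG had 4 shared regions, 7 of NanogWT only and 3 of NanogBiD only, where all gene windows had 52.9%, 15.4% and 31.6%. BRG1 had 4, 5 and 3, against 46.4%, 10.8% and 42.8%. The FLAG regions of NanogWT only lay at Gata4, Cdx2, Eomes and Pax6, and those of BRG1 at Cdx2 and Eomes. The one at Pax6 was the lower of its FLAG peaks in NanogWT, which touched no FLAG peak of NanogBiD and was joined to the other only by the remaining targets. These counts are small and rest on low peaks. With a summit height of at least 15 tags, 1 FLAG region of each class was left. With 50 kb flanks NanogBiD only was the larger class for both targets, with 8 FLAG regions of NanogWT only against 11 of NanogBiD only, and 7 against 12 for BRG1. Without peaks scoring under 100, BRG1 had 0 regions of NanogWT only and 2 of NanogBiD only.

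Heights were compared at the regions shared by the arms, using the tallest summit of each arm whether or not the summits coincided. The median log2 ratio of NanogBiD over NanogWT was −0.06 for 4 FLAG regions, 0.27 for 4 BRG1 regions, 0.49 for 4 H3K27ac regions and 0.00 for 26 H3K4me1 regions. Over all regions in both arms the medians were 0.15, 0.14, 0.08 and −0.18. Single regions ranged from −0.68 for FLAG to 1.08 for H3K27ac. No member region of any target had an interval that left out 1. For FLAG, 1 region was taller in NanogBiD, 2 were lower and 1 was equal, and for BRG1 3 were taller and 1 was equal. For H3K27ac 3 were taller and 1 lower, and for H3K4me1 11 were taller, 8 lower and 7 equal.

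**Figure D5:**
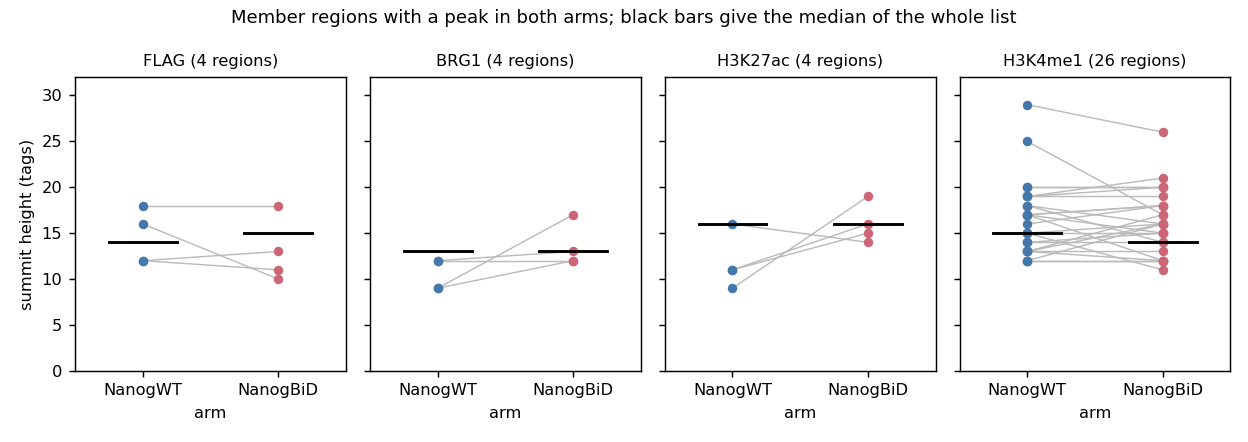
Summit height in tags (vertical axis) of the member regions with a peak in both arms (horizontal axis, NanogWT in blue and NanogBiD in red), with a line joining the 2 values of a region and a black bar at the median of the whole list. FLAG and BRG1 points lie mostly at or below the bars, and H3K4me1 points lie on both sides of them, up to 29 tags.

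Peaks of the members were low for their lists in all targets but H3K4me1. Above the list median stood 2 of 11 FLAG peaks in NanogWT and 2 of 8 in NanogBiD, 1 of 9 and 1 of 7 BRG1 peaks, and 0 of 3 and 1 of 8 H3K27ac peaks. For H3K4me1 it was 16 of 37 and 20 of 32. The tallest FLAG summits, of 18 tags at Pax6 in both arms, compare with list maxima of 92 and 91 tags.

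The overlap of targets within an arm was counted at these loci too. Of the FLAG peaks, 5 of 11 overlapped a BRG1 peak in NanogWT and 7 of 8 in NanogBiD, against 49.9% and 67.2% over all gene windows. An H3K27ac peak was overlapped by 2 of 11 and 6 of 8, against 54.7% and 53.5%, and an H3K4me1 peak by 9 of 11 and 7 of 8, against 66.1% and 52.8%. Among the H3K4me1 peaks, 3 of 37 in NanogWT and 8 of 32 in NanogBiD overlapped H3K27ac, against 43.8% and 57.6%.

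The same count was made for 40 other regulators of these lineages, 10 each of endoderm, mesoderm, trophoblast, and ectoderm and neural tissue, a list chosen with earlier results of these data known. H3K4me1 alone was found at 3 of the 40 (Foxa1, Gsc and Esx1), against 0.902% of all genes. H3K4me1 in both arms was found at all 40, against 78.1%. FLAG peaks lay at 35 loci in NanogWT and 32 in NanogBiD, BRG1 peaks at 27 and 29, and H3K27ac peaks at 24 and 26. The low share of loci with FLAG at the members was thus not seen here. H3K4me1 peaks per 100 kb numbered 5.78 and 4.69, above all genes as at the members. There were 73 FLAG peaks in NanogWT against 80 in NanogBiD, which had more at 15 loci and fewer at 11. BRG1 peaks numbered 48 and 64, with more at 12 loci and fewer at 2, and H3K27ac peaks 50 and 57, with more at 7 and fewer at 3. H3K4me1 peaks numbered 143 and 116, with more in NanogBiD at 7 loci and fewer at 20. NanogBiD over NanogWT, these loci had ratios of 1.10 (FLAG), 1.33 (BRG1), 1.14 (H3K27ac) and 0.811 (H3K4me1).

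A region with both proteins in NanogBiD alone lay at 6 of the 40 loci, a smaller share than the 26.2% of all genes. The trophoblast regulators held 3 of these loci, Gata3 with 2 regions and Tead4 and Gcm1 with 1 each, and each of the other lineages held 1. Both proteins in NanogWT alone were found at 1 region each of Prdm1, Gata3, Tfap2a and Lhx2 (4 of 40, against 6.49% of all genes), so that Gata3 held regions of both kinds. FLAG peaks in NanogWT and NanogBiD numbered 3 and 4 at Gata3, 4 and 6 at Tead4 and 2 and 4 at Gcm1. Their FLAG peaks in NanogBiD follow from this choice of loci. Of the other trophoblast regulators listed, Tfap2a had 4 and 3, and Esx1 had 0 in each arm, as had the member Tfap2c.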

How the data were processed

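CUT&Tag peak and summit lists of 8 libraries were used. Per the labels and methods, the authors trimmed reads with Trim Galore 0.6.4, aligned them to mm10 with Bowtie2 2.4.5, filtered them with SAMtools 1.16.1, merged replicates and called peaks with MACS 1.4.2, for which the methods name no control. The study states a general minimum of replicates for all its experiments, how many went into each list is not given in the sources used here, and the kit and cell number in the labels differ from those in the methods. The score of a peak in the deposited lists is the significance score of the caller, and the signal in the deposited summit lists is the tag pileup at the summit, not scaled to depth. Groups came from the labels.

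Peaks were assigned to GENCODE genes by overlap of at least 1 bp, and overlapping or touching peaks were merged into regions (Python 3.11.15, pandas 2.3.3). Region counts were tested on simulated data. The simulated sites lay too far apart to join, so the joining of neighbouring peaks into a region was not covered. Ratios have exact binomial intervals and no test was possible. All members were named, with their promoter regions, their tallest FLAG regions and regions with FLAG and BRG1 in 1 arm only. Members and lists were chosen with earlier results of these data known. Alternatives were other scores, heights, windows, numbers of peaks, gaps, summit windows and assignment to the nearest start. Sequences were read from RefSeq GRCm38.p6, the assembly of mm10. Some items withheld for evaluation are not reported here.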

Additional observations from a re-analysis of the deposited data

How the results depend on the processing

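Counts of regions are given as both arms, NanogWT only and NanogBiD only. Without peaks scoring under 100 they were 2, 3 and 1 for FLAG, 2 and 0 (both arms and NanogWT only) for BRG1, 2 in both arms and 2 in NanogBiD only for H3K27ac, and 7 in both arms and 3 in NanogBiD only for H3K4me1. With each list reduced to its 20000 best peaks they were 0, 1 and 0 for FLAG, 1, 3 and 0 for BRG1, 2 in both arms and 2 in NanogBiD only for H3K27ac, and 5 in both arms and 5 in NanogWT only for H3K4me1. With 5 kb on each side, FLAG had 2 in both arms, BRG1 3 in NanogWT only, H3K27ac 2 in both arms and H3K4me1 2 in NanogBiD only. With 50 kb, FLAG had 17 in both arms and 11 in NanogBiD only, BRG1 10 and 12, H3K27ac 12, 1 and 7, and H3K4me1 41 in both arms. With at least 15 tags, FLAG had 1, 1 and 1, BRG1 0, 0 and 1, H3K27ac 0 in both arms, and H3K4me1 14 in both arms and 6 in NanogWT only. With windows of 100 bp around summits, FLAG had 2 in both arms and 6 in NanogBiD only, BRG1 1, 8 and 6, H3K27ac 0, 3 and 8, and H3K4me1 16, 21 and 16. Merging across gaps of 500 bp left 7 H3K4me1 regions in NanogWT only. Assignment to the nearest start, added after the data had been seen, left 1 FLAG region in NanogBiD only, 3 BRG1 regions in NanogWT only and 2 H3K27ac regions in both arms.

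The number of loci with H3K4me1 alone was 1 at scores of 100 or more, with the 20000 best peaks and with 50 kb on each side. Both proteins in NanogBiD only were found at 0 regions at scores of 100 or more, with the 20000 best peaks and with at least 15 tags, and at 2 with 50 kb. Both in NanogWT only were found at 0, 1 and 0 under the first 3 of these settings, the 1 being the start of Gata6, whose FLAG and BRG1 peaks of NanogBiD were not among the 20000 best. The median log2 height ratio of H3K4me1 was 0.18 when centred on all regions in both arms and −0.30 from scores. No ratio of peak numbers could be given for FLAG among the 20000 best peaks (1 against 0 peaks), or with at least 15 tags for BRG1 (0 against 1) and H3K27ac (0 against 3). The other 80 values moved by at most 1.5 times or stayed within their interval. The causes were not tested.

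No paired analysis was possible because the arms had 1 merged library each per target. Depth was unknown, and the intervals leave out the variation between cultures.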
